A study of Mus musculus with 12 samples.

Results

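The first response of naive CD8 T cells with mutant Ikaros was examined by comparing the 2 libraries made 12 h after stimulation with the 2 libraries made from resting cells, 4 of the 12 libraries of the study. All genes in the deposited table were compared on the scale log2(RPKM + 1), where RPKM is the number of reads scaled to the length of the gene and the size of the library. The cells came from spleens of 6-week-old C57Bl/6 mice, labelled female, that were homozygous for the Ikaros-Zn4-/- mutation (Zn4 cells). The labels name a wild-type (WT) counterpart of the same strain, age and sex, and no other allele. Splenocytes were enriched by negative selection and then sorted as CD8+ cells high in CD62L and low or negative for CD44. Resting cells were lysed directly (0 h), and the others were cultured for 12 h on immobilized anti-CD3 and anti-CD28. The levels of the WT libraries of 0 h and 12 h, also 2 per group, are given where the genotypes are compared. All 12 libraries entered the filter on level and the estimate of the spread behind each p-value. The mutation is present in every cell of the animal, so an effect that arose before the cells were sorted is part of each comparison. Whether the replicates of a group come from separate animals is not stated, so p-values measure the spread between these samples. At rest this spread may be technical, while the replicates of 12 h differed in their sex-linked transcripts, as given below.

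Ikaros is a zinc finger protein of lymphocytes that binds DNA and recruits chromatin-modifying complexes, and zinc finger 4 belongs to the fingers that contact DNA. Antibodies against CD3 and CD28 stand in for the antigen receptor and costimulatory signals of an infection. Such signals take a naive CD8 T cell out of quiescence, start its growth before its division, and begin the production of cytokines, chemokines and cytotoxic proteins.

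The 4 libraries held 26191173 and 26978970 reads at rest and 28125090 and 27532629 reads at 12 h, with 74.4% and 76.3% of them in listed genes at rest and 82.5% and 83.6% at 12 h. A gene 2 kb long that received 3 reads would be listed at 0.0533 to 0.0573 RPKM. The replicates correlated at r = 0.983 at rest and 0.993 at 12 h across genes, which are not independent replicates. Cd8a, which encodes one chain of the CD8 coreceptor, stood at 193 and 172 RPKM at rest and 219 and 214 RPKM at 12 h. Cd8b1, the other chain, fell from 318 and 327 to 199.9 and 197 RPKM (log2 difference -0.70 ± 0.08, SE), and of 12 CD8 T cell markers, all tested, 2 were called higher and 4 lower (7 with quantile normalization). Ikzf1, which encodes Ikaros, stood at 129 and 137 RPKM at rest and 114 and 124 RPKM at 12 h. A level summed over a gene does not show the altered finger, so it does not check the genotype of a library.

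Transcripts of the Y chromosome were present in both 12 h libraries although all animals are labelled female. Ddx3y, Eif2s3y, Kdm5d and Uty summed to 43.4 and 21.0 RPKM at 12 h and to at most 0.0209 RPKM at rest. Xist, the RNA of the inactive X chromosome, was listed at 29.2 and 38.1 RPKM at rest and 0.0258 and 24.3 RPKM at 12 h. Replicate 1 of 12 h thus held Y-linked transcripts and almost no Xist, while replicate 2 held both. For Zn4 cells the time after stimulation and the sex of the cells therefore cannot be told apart by the design. Of 468 tested genes on the X chromosome, 42.3% were called higher and 25.9% lower at 12 h, against 43.6% and 29.6% of 11583 genes on other chromosomes. These shares do not test the part of the sex of the cells in the calls. With the summed Y-linked level as a covariate, 6979 genes were called between 0 h and 12 h, against 9296 without it. The calls of Ltb, Eomes, Gzma, Gbp2, Iigp1, Bst2 and Slfn2 ended. In Zn4 cells this level rose with time in both replicates, so this fit cannot separate the sex of the cells from time. Within groups the level differed most between the 2 WT libraries of 12 h, so the adjustment rests mainly on that pair. Among the WT libraries, replicate 1 of 12 h also held Y-linked transcripts (38.9 RPKM) and replicate 2 did not (0.00198 RPKM).

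**Figure D1:**
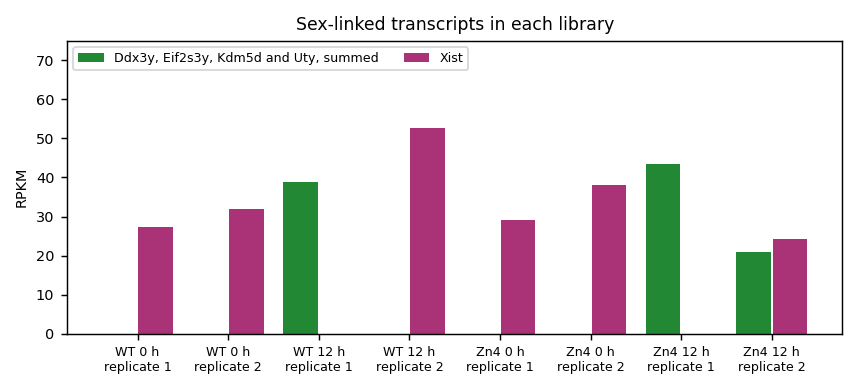
Bars give the RPKM of 4 summed Y-linked genes (green) and of Xist (purple) in each of the 8 libraries of 0 h and 12 h. Y-linked transcripts were seen in both Zn4 libraries of 12 h (43.4 and 21.0 RPKM) and in WT 12 h replicate 1 (38.9 RPKM), and Xist was close to 0 in the first Zn4 library of 12 h and in that WT library.

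Markers of other cell types were also compared, and in bulk libraries fewer cells of a type and less RNA per cell cannot be told apart. Of 23 markers of natural killer and gamma-delta T cells, 9 were tested, 1 was called higher and 5 lower, and the list summed to 108 and 105 RPKM at rest and to 10.5 and 17.9 RPKM at 12 h. Most of the resting sum came from Cd163l1 (33.6 and 34.6 RPKM), Tmem176a (30.3 and 30.3 RPKM) and Tmem176b (34.7 and 31.2 RPKM), while the defining natural killer gene Ncr1 and the delta chain constant region Trdc were not in the tested set. Of 21 B cell markers, 6 were listed and 4 tested, with 0 called higher and 2 lower. The listed members summed to 118 and 79.9 RPKM at rest and to 87.0 and 84.5 RPKM at 12 h. Most of this was Ighm (70.9 and 55.1 RPKM at rest and 71.4 and 71.1 RPKM at 12 h), which was not called, so the sum does not show the falls of the called members. Cd79a and Ms4a1 were not tested. Of 20 myeloid markers, 2 were tested and summed to at most 6.62 RPKM in any of these libraries. Of 10 CD4 T cell markers, 8 were tested, with 3 higher and 4 lower, and Cd4 itself stood at 0.776 and 1.88 RPKM at rest and 0.0441 and 0.0450 RPKM at 12 h. The erythroid and platelet list had 1 tested member, Itga2b, at 1.38 and 1.67 RPKM at rest and 0.561 and 0.506 RPKM at 12 h. The part of other cells in the results was not tested.

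After 12 h most of the transcriptome had changed in Zn4 cells. Of 12726 genes tested, 9296 (73.0%) were called at an adjusted p under 0.05 with limma, 5533 higher (43.5%) and 3763 lower (29.6%). The counts of each gene list below are to be set against these shares. By the size of the difference, 2891 were at least 2-fold higher (22.7%) and 1924 at least 2-fold lower (15.1%) on the log2(RPKM + 1) scale, 37.8% in all. The median gene lay 0.19 higher at 12 h, a shift that median-ratio scaling moved to -0.02 and quantile normalization to 0.04. Under those scalings, 49.1% and 52.3% of the called genes were higher, against 59.5% with the deposited values. The levels of 10967 genes (86.2%) did not overlap between the resting and the 12 h libraries. The largest changes were rises, with 24 genes called higher and 3 called lower by 5 or more on the log2 scale.

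Some genes went from near silence to high levels. Fewer than 1 RPKM in both resting libraries and at least 10 RPKM in both 12 h libraries was seen for 46 genes, and the reverse for 34. The corresponding numbers in WT cells were 37 and 8, of which 19 and 2 were the same genes. These numbers depend on the 2 limits. In WT cells Ifngr2 went from 50.6 and 38.3 to 1.14 and 1.73 RPKM and so missed the lower limit at 12 h. Cd163l1 missed the upper limit, at 0.543 and 0.402 RPKM in resting WT cells. The difference in these numbers between the genotypes was not tested. Xcl1 ranked 11147th of the 12726 tested genes at rest and first at 12 h. At 12 h it held 3.35% and 3.34% of the summed RPKM of the 2 libraries. It also ranked first in WT cells at 12 h. Ccl4 and Ccl3 went from ranks 11679 and 12209 to ranks 11 and 12. The 10 most abundant genes together held 6.57% and 6.37% of the summed RPKM at rest and 8.53% and 8.49% at 12 h.

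**Figure D2:**
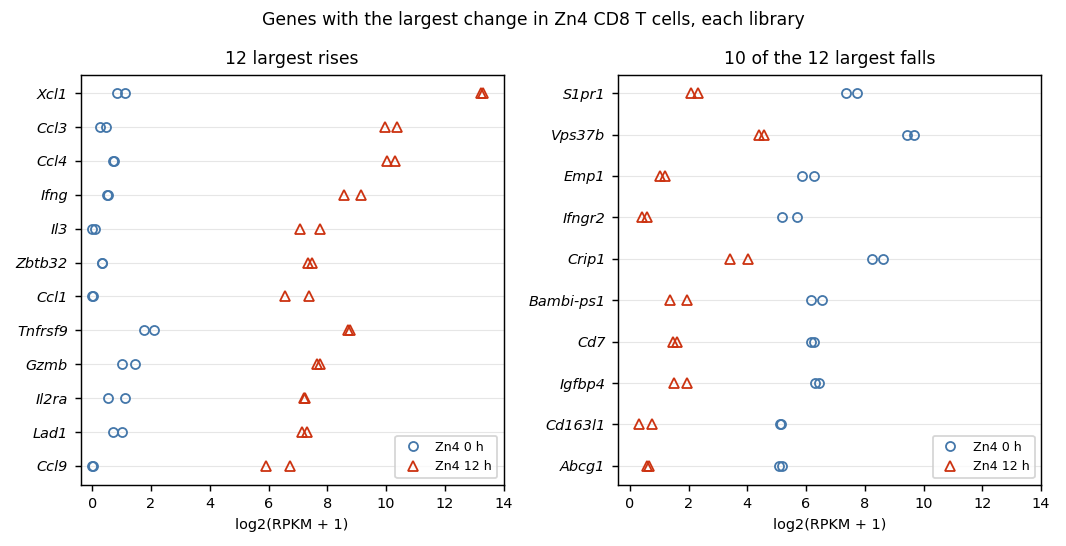
Each symbol is 1 library of Zn4 cells, at rest (circles) or at 12 h (triangles), on the scale log2(RPKM + 1), for the 12 called genes with the largest rise (left) and 10 of the 12 with the largest fall (right). They were picked among genes whose resting and 12 h libraries do not overlap, so the gap in all 22 follows from the choice. Of the 12 rises, 7 start below 1 RPKM in both resting libraries.

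Chemokine genes made the steepest rises. Xcl1, which encodes a chemokine that attracts cross-presenting dendritic cells, was at 1.17 and 0.780 RPKM at rest and 9674 and 9962 RPKM at 12 h (log2 difference 12.29 ± 0.18, SE, adjusted p = 8.5e-10). Ccl3, an inflammatory chemokine, was at 0.199 and 0.387 RPKM at rest and 989 and 1309.8 RPKM at 12 h (9.79 ± 0.38). Ccl4, its relative and neighbour in the genome, was at 0.636 and 0.674 RPKM at rest and 1041 and 1259 RPKM at 12 h (9.44 ± 0.24). These genes were picked among those whose resting and stimulated libraries do not overlap, so the gap between the libraries follows from the choice. Ccl1, the ligand of CCR8, was at 0 and 0.0156 RPKM at rest and 94.3 and 165 RPKM at 12 h (6.96 ± 0.42). Ccl9 was at 0 and 0.0243 RPKM at rest and 59.9 and 104 RPKM at 12 h (6.30 ± 0.36). Of 9 chemokine ligands tested, 5 were called higher and 1 lower, with a median log2 difference of 6.30 against 0.19 over all genes. The one lower was Ccl5, a chemokine of memory cells, at 4.26 and 3.05 RPKM at rest and 0.852 and 2.46 RPKM at 12 h, and its call ended when Zn4 0 h replicate 1, Zn4 0 h replicate 2 or Zn4 12 h replicate 1 was left out. With the Y-linked level as a covariate the difference of Ccl5 turned to 0.19.

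Cytokine genes divided into induced and reduced members. Ifng, the interferon that activates macrophages, was at 0.443 and 0.399 RPKM at rest and 375 and 569.5 RPKM at 12 h (log2 difference 8.35 ± 0.20, adjusted p = 8.88e-09). Il3, a growth factor of blood cell progenitors and mast cells, was at 0.0607 and 0 RPKM at rest and 135 and 212 RPKM at 12 h (7.37 ± 0.20). Il2, the growth factor of T cells, was at 0.0334 and 0.0648 RPKM at rest and 35.9 and 30.3 RPKM at 12 h (5.02 ± 0.20). These cytokine genes were close to 0 in both resting libraries and high in both stimulated ones. Lta, which encodes lymphotoxin alpha, went from 7.12 and 6.81 to 176 and 176 RPKM, and Csf2, Lif and Tnf also rose, by 2.47, 1.89 and 1.68. In the other direction, Il16 fell from 18.9 and 18.9 to 1.15 and 1.53 RPKM and Ltb from 170.5 and 197 to 79.5 and 96.1 RPKM. In all, 8 of 14 tested cytokine ligands were called higher and 3 lower (median 1.13).

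The promoter windows of 4 genes that carry these results are given from RefSeq (GRCm38.p6) because 3 of them begin transcripts that were scarce at rest and abundant at 12 h, and the fourth begins one that did the opposite. Each window holds the 250 bases before the start of the transcript, read 5′ to 3′ along the gene, and capitals mark a match to one of 11 motifs searched on both strands. These were AP-1 (TGANTCA), NF-kappaB (GGG and TTTCC with 2 free bases between them), CRE (TGACGT), E-box (CACGTG), Ikaros (TGGGAA), the interferon-stimulated response element (GAAA, 2 free bases and GAAA again), E2F (TTTNNCGC), SRE (TCACNCCAC), CARE (TGATGNAA), FOXO (TGTTTAC) and the TATA box (TATAAA). An Ikaros match was found in 19.9% of the 10246 windows of tested genes and a TATA match in 5.88%.
Xcl1 (chr1:164935523-164935772, minus strand): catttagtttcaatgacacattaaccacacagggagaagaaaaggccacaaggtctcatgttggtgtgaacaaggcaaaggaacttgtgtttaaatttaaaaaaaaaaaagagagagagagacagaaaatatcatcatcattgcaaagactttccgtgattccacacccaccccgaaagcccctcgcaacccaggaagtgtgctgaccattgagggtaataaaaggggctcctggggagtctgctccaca
Ifng (chr10:118440796-118441045, plus strand): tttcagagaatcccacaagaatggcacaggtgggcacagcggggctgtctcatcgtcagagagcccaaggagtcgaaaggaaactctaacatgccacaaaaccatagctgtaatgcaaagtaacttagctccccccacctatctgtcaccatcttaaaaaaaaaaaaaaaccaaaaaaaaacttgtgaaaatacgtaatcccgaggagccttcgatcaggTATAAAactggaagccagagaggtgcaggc
Il3 (chr11:54267280-54267529, minus strand): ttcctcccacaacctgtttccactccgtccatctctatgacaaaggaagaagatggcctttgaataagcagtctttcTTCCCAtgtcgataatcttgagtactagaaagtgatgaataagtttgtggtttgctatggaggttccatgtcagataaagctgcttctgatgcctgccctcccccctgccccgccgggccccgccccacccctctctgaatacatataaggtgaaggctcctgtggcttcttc
Cd163l1 (chr7:140218017-140218266, plus strand): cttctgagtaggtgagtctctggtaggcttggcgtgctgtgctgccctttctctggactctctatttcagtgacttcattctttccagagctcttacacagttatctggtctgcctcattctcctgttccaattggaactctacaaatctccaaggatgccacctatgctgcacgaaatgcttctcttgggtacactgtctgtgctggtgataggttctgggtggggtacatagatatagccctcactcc
The window of Ifng held a TATA match 30 to 25 bases before the start. The window of Il3 held an Ikaros match, on the reverse strand, 173 to 168 bases before the start. The windows of Xcl1 and Cd163l1 held no match. A match is a run of letters and not evidence of binding.

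Some ligands and receptors of the tumour necrosis factor family made large rises. Tnfrsf9, the costimulatory receptor 4-1BB, was at 2.40 and 3.31 RPKM at rest and 434 and 413 RPKM at 12 h (6.79 ± 0.24). Tnfsf14, a ligand of the herpesvirus entry mediator, was at 0.863 and 0.718 RPKM at rest and 88.8 and 86.2 RPKM at 12 h (5.63 ± 0.18), and Tnfrsf14, which encodes that receptor, fell from 40.6 and 53.3 to 5.80 and 7.84 RPKM. Fasl, the death ligand of cytotoxic cells, was at 0.434 and 0.326 RPKM at rest and 19.3 and 17.1 RPKM at 12 h (3.79 ± 0.11). Of 23 members tested, 14 were called higher and 6 lower (median 0.89), with 3 lower when the Y-linked level was a covariate. Over all genes 43.5% were higher and 29.6% lower.

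Cytokine receptors went mostly the other way. Il2ra, the chain that gives the interleukin-2 receptor its high affinity, was at 0.442 and 1.14 RPKM at rest and 146 and 148 RPKM at 12 h (6.40 ± 0.17), and Il12rb1 (3.95 ± 0.28), Il15ra (3.27) and Il1r2 (1.91) were the other receptors called higher. Il7r, the receptor for the survival cytokine interleukin-7, fell from 108 and 161 to 5.25 and 7.09 RPKM (-4.22 ± 0.27). Both chains of the interferon-gamma receptor fell while Ifng rose. Ifngr2 was at 50.5 and 34.8 RPKM at rest and 0.343 and 0.493 RPKM at 12 h (-4.92 ± 0.23), and Ifngr1 at 133 and 120.3 RPKM at rest and 7.43 and 7.51 RPKM at 12 h (-3.91 ± 0.12). Il18r1 (-3.75), Tgfbr2 (-2.92) and Il6ra (-2.78) were also lower. The counts were 4 higher and 17 lower of 25 tested, with a median of -1.19.

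Genes of homing and adhesion were lowered in 15 and raised in 9 of 28 cases (median -1.30). S1pr1, the receptor through which naive cells leave lymphoid organs, was at 210.0 and 164 RPKM at rest and 3.27 and 3.97 RPKM at 12 h (-5.34 ± 0.17, adjusted p = 1.53e-08). Cxcr4 (-4.48 ± 0.39) and the gut integrin chain Itgb7 (-4.16 ± 0.26) fell with it. Cd44, the marker low in sorted cells, rose from 0.535 and 0.990 to 9.16 and 8.96 RPKM. Rgs16, which dampens chemokine receptor signals, was at 3.22 and 3.57 RPKM at rest and 189 and 173 RPKM at 12 h (5.37 ± 0.19).

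Inhibitory and costimulatory receptors were divided nearly evenly, 13 higher and 12 lower of 26. Lag3 (1.32 and 1.42 RPKM at rest and 92.3 and 109 RPKM at 12 h, log2 difference 5.42 ± 0.17) and Pdcd1, which encodes PD-1 (1.5 and 2.88 RPKM at rest and 133 and 123 RPKM at 12 h, 5.37 ± 0.30), rose. Cd200 (4.84 ± 0.11) and the PD-1 ligand Pdcd1lg2 (4.58 ± 0.14) rose as well. Ctla4, a further inhibitory receptor, fell from 46.3 and 29.5 to 2.33 and 3.93 RPKM (-3.23 ± 0.36). Cd69, an early activation marker, was already high at rest and fell, with 242 and 276 RPKM at rest and 117 and 119 RPKM at 12 h. The adhesion receptor Cd2 fell by 2.85 and the costimulatory receptor Cd28 fell by 1.76.

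Genes of the T cell receptor complex and its first signalling steps were lower in 18 and higher in 6 of 34 cases (median -0.52). Among receptor chains, Cd3d fell from 268 and 279 to 111 and 127 RPKM and Cd3g from 199 and 219 to 104 and 110.4 RPKM. Cd3e stood at 141 and 162 RPKM at rest and 159 and 167 RPKM at 12 h and was not called, with a log2 difference of 0.11 that became -0.27 and called with quantile normalization. The kinase gene Txk (-3.40 ± 0.12), the diacylglycerol kinase gene Dgka (-2.93 ± 0.17) and the adaptor gene Grap2 (-2.32 ± 0.16) had large falls. Zap70, the kinase that binds the receptor chains, rose from 65.6 and 56.0 to 158 and 172 RPKM. Signal feedback inhibitors included Spry1, an inhibitor of the Ras pathway, at 1.76 and 2.28 RPKM at rest and 119 and 114 RPKM at 12 h (5.28 ± 0.13), while the phosphatase gene Dusp10 (-4.13 ± 0.25), the pseudokinase gene Trib2 (-3.39 ± 0.28) and Socs3 (-3.32 ± 0.25) fell. Of 26 such genes, 12 were called higher and 7 lower, close to the shares over all genes (43.5% and 29.6%).

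Transcription factors of the immediate-early and AP-1 group moved in both directions, with 7 higher and 10 lower of 25. Fosl1 rose from 0.626 and 1.32 to 31.8 and 32.7 RPKM, while Fosb fell from 69.2 and 93.6 to 2.88 and 4.36 RPKM. Fos (-2.39 ± 0.39) and Fosl2 (-2.14 ± 0.30) also fell. In the group of NFAT, NF-kappaB and IRF factors, 6 were higher and 11 lower of 21. Irf8 was at 1.03 and 0.988 RPKM at rest and 32.2 and 36.2 RPKM at 12 h (4.13 ± 0.22), Nfkb1 rose by 2.45, Irf1 fell by 2.64, and Irf7, a factor of the type I interferon response, was at 24.3 and 18.6 RPKM at rest and 0.718 and 0.938 RPKM at 12 h (-3.61 ± 0.16).

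Zbtb32, which encodes a BTB zinc finger repressor of activated lymphocytes, was the steepest rise among effector and lineage factors. It was at 0.259 and 0.252 RPKM at rest and 159.9 and 178 RPKM at 12 h (log2 difference 7.08 ± 0.21, adjusted p = 1.35e-08). Bhlhe40 rose by 2.50 and Eomes by 1.42, while Rora fell by 2.51 and Prdm1 fell by 2.06. Tbx21, which encodes T-bet, stood at 7.58 and 2.83 RPKM at rest and 6.13 and 8.86 RPKM at 12 h and was not called, but it was called higher without Zn4 0 h replicate 1 (1.13, adjusted p = 0.0122). Of 29 factors, 10 were higher and 13 lower, and these became 6 and 8 with the level of Y-linked transcripts as a covariate. Within the Ikaros family, Ikzf2 fell from 7.49 and 10.5 to 2.40 and 2.41 RPKM. Ikzf1 (-0.16 ± 0.10) and Ikzf3 (-0.15 ± 0.17) were not called. Ikzf1 was called lower under median-ratio scaling (-0.44), quantile normalization (-0.54) and limma-voom on recovered reads (-0.30), and Ikzf3 with quantile normalization (-0.55).

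Factors of quiescence and the naive state fell together, 24 lower and 3 higher of 30, with a median of -1.91. Klf2, which maintains quiescence and drives S1pr1, was at 253 and 229 RPKM at rest and 7.66 and 12.2 RPKM at 12 h (-4.50 ± 0.26). Tsc22d3 (-4.21 ± 0.33), Pik3ip1 (-4.18 ± 0.36) and Klf3 (-4.14 ± 0.21) had falls of similar size. Lef1 fell from 88.4 and 74.8 to 5.83 and 7.63 RPKM, Tcf7 from 505 and 469.8 to 123 and 140.0 RPKM and Foxo1 from 61.6 and 59.5 to 13.4 and 13.2 RPKM. The 3 members called higher were Foxp1, Bach2 and Slfn2, and the call of Slfn2 ended with median-ratio scaling, with quantile normalization, with limma-voom, and without Zn4 0 h replicate 1 or Zn4 12 h replicate 1.

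Cytotoxic genes were raised in 11 and lowered in 8 of 19 cases, against 43.5% and 29.6% of all genes. Gzmb, the granzyme that starts apoptosis in target cells, was at 1.72 and 0.993 RPKM at rest and 199 and 214 RPKM at 12 h (6.47 ± 0.36, adjusted p = 2.28e-07). Prf1, the pore-forming perforin, was at 18.6 and 8.41 RPKM at rest and 105 and 112 RPKM at 12 h (3.01 ± 0.34). Gzmc differed between its 12 h replicates, at 0.0409 and 0.159 RPKM at rest and 5.75 and 27.3 RPKM at 12 h. The protease inhibitor genes Serpinb9 (4.46 ± 0.36) and Serpinb6b (3.93 ± 0.29), which belong to a family with close copies, rose with Gzmb. Gzmm was at 36.8 and 18.3 RPKM at rest and 2.63 and 3.36 RPKM at 12 h (-2.76 ± 0.26) and Gzma at 5.22 and 2.62 RPKM at rest and 0.162 and 1.65 RPKM at 12 h (-1.43 ± 0.35), so both of these granzyme genes were lower in every stimulated library.

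Genes for building ribosomes rose as a whole. All 46 tested genes of ribosome biogenesis were called higher, against 43.5% of all genes, with a median of 2.07 and a range from 0.54 to 3.39. Nop16 was at 7.97 and 10.7 RPKM at rest and 107 and 105 RPKM at 12 h (3.39 ± 0.16), Nhp2 at 22.1 and 19.9 RPKM at rest and 223 and 228 RPKM at 12 h (3.37 ± 0.12) and the pseudouridine synthase gene Dkc1 at 9.94 and 11 RPKM at rest and 100.3 and 96.3 RPKM at 12 h (3.12 ± 0.09). Genes of the cytosolic ribosomal proteins moved far less. Of 34 tested, 17 were called higher at the deposited scaling (median 0.25), while 11 were called lower with median-ratio scaling (median -0.03), 7 with quantile normalization (median -0.06) and 6 with limma-voom on recovered reads. With the Y-linked level as a covariate 11 were called higher. These genes have many processed copies in the genome, so their counts are uncertain.

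Translation factors were called higher in 21 of 29 cases (median 1.25). Eif5a rose from 86.2 and 87.1 to 699 and 763 RPKM (3.06 ± 0.08), and Pdcd4, an inhibitor of the helicase eIF4A, was the only member called lower, falling from 115 and 105 to 8.93 and 10.8 RPKM. Chaperones and mitochondrial import genes were higher in 32 of 34 cases (median 1.60), led by Timm10 (3.38 ± 0.13) and by Hspd1, the mitochondrial chaperonin, which went from 20.4 and 26.0 to 197 and 194 RPKM. The 2 members called lower, Dnaja1 and Dnajb1, encode J-domain cochaperones.

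Subunits of the proteasome, the complex that degrades tagged proteins, were higher in 29 of 33 cases (median 1.83). Psmd1 rose from 5.13 and 6.11 to 48.4 and 44.3 RPKM (2.84 ± 0.13), and the catalytic subunit gene Psmb5 from 10.9 and 12.7 to 62.4 and 67.8 RPKM (2.37 ± 0.13). The 3 subunits called lower were those that replace the catalytic subunits in the immunoproteasome. Psmb8 was at 47.6 and 45.8 RPKM at rest and 20.4 and 28.9 RPKM at 12 h. Psmb9 was at 22.5 and 17.7 RPKM at rest and 5.16 and 7.38 RPKM at 12 h. Psmb10 was at 47.2 and 46.3 RPKM at rest and 10.1 and 17.0 RPKM at 12 h. The standard subunit Psmb5 and these 3 subunits thus moved in opposite directions under the deposited scaling, median-ratio scaling, quantile normalization and the fit to recovered reads.

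Genes of the respiratory chain were called higher in 34 of 35 cases (median 1.17), with Cox5a at 16.9 and 16.1 RPKM at rest and 75.6 and 83.9 RPKM at 12 h (2.20 ± 0.12) and Cyc1, cytochrome c1, at 38.8 and 44.8 RPKM at rest and 163 and 176 RPKM at 12 h (2.00 ± 0.10). Glycolysis and hypoxia genes were more mixed, 14 higher and 6 lower of 28 (median 0.33). Over all genes 43.5% were higher and 29.6% lower (median 0.19). Aldoa (2.84 ± 0.08), Tpi1 (2.49 ± 0.17) and Ldha (2.20 ± 0.18) rose. Hk2, the hexokinase of growing cells, went from 5.56 and 4.84 to 34.3 and 35.7 RPKM (2.54 ± 0.14). The number called lower was 10 with median-ratio scaling and 3 with the Y-linked level as a covariate. It was also 3 when either Zn4 0 h replicate 1 or Zn4 12 h replicate 2 was left out.

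Amino acid supply and tRNA charging rose in 31 of 34 cases (median 1.86). Shmt1, of one-carbon metabolism, was at 3.11 and 4.09 RPKM at rest and 49.2 and 52.0 RPKM at 12 h (3.50 ± 0.17). Asns, asparagine synthetase, was at 0.251 and 0.447 RPKM at rest and 13.2 and 10.01 RPKM at 12 h (3.21 ± 0.17). Psat1 (2.78 ± 0.07) and Mthfd1 (3.36 ± 0.13) rose as well, and the transporter gene Slc38a2 was the one member called lower. The CARE motif, a binding sequence of ATF4 complexes (TGATGNAA on either strand), was found in the 250 bases before the start of 7 of the 25 genes of this list with a promoter in the reference (28.0%), against 2.26% of 8082 tested genes. All 7 were called higher, as were 31 of the 34 tested members of the list with or without the motif. Of all tested genes with the motif, 42.6% were called higher. A link between the motif and the calls was not tested. Stretches around the motif, in capitals, are given for 3 of them to show the match.
Gars (chr6:55037951-55037998, plus strand): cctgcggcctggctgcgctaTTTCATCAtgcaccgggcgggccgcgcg
Aars (chr8:111033710-111033757, plus strand): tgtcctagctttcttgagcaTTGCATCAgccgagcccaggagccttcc
Chac1 (chr2:119351029-119351076, plus strand): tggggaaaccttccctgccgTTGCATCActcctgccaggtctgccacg
Gars, the glycyl-tRNA synthetase gene, went from 47.0 and 41.1 to 168 and 164 RPKM (1.89 ± 0.10). Aars, the alanyl-tRNA synthetase gene, went from 15.9 and 12.6 to 45.5 and 45.6 RPKM (1.62 ± 0.11). Chac1, which encodes an enzyme that degrades glutathione, went from 0.257 and 0.181 to 2.39 and 2.20 RPKM (1.43 ± 0.27).

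Nucleotide synthesis genes had 23 members called higher and 3 called lower among 26 (median 1.65). Cad, which carries the first steps of pyrimidine synthesis, was at 7.75 and 7.63 RPKM at rest and 108 and 108 RPKM at 12 h (3.65 ± 0.09), Pfas at 2.90 and 2.49 RPKM at rest and 39.9 and 42.8 RPKM at 12 h (3.52 ± 0.12) and the deaminase gene Dctd at 0.392 and 0.337 RPKM at rest and 15.8 and 17.2 RPKM at 12 h (3.68 ± 0.11). Sterol and lipid synthesis genes had 21 members called higher and 7 called lower among 32 (median 0.80). Sqle rose by 2.33 ± 0.11 and Fasn by 2.06 ± 0.16. The list also holds 2 sterol exporters, and both fell: Abcg1 was at 35.1 and 32.5 RPKM at rest and 0.481 and 0.554 RPKM at 12 h (-4.52 ± 0.15), and Abca1 fell by 2.76. The number called lower in the list was 4 with the Y-linked level as a covariate or when Zn4 12 h replicate 1 was left out.

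Genes of DNA replication rose by 12 h, while most of those of mitosis were not called. Of 42 replication genes, 37 were called higher (median 1.04), and the other 5 were not called. Mcm5, a subunit of the replicative helicase, was at 14.8 and 12.6 RPKM at rest and 113 and 120.1 RPKM at 12 h (3.01 ± 0.13), Mcm2 rose by 2.95 ± 0.11, and the polymerase subunit gene Pold2 by 2.83 ± 0.23. Of 34 mitosis genes, 5 were higher and 6 lower (median 0.01), with 11 higher at a pseudocount of 0.1, 2 with median-ratio scaling and 1 with the Y-linked level as a covariate. Leaving out Zn4 0 h replicate 1, Zn4 0 h replicate 2 or Zn4 12 h replicate 2 left 1, 2 and 1 called higher. Mki67, a marker of dividing cells, was at 0.675 and 0.651 RPKM at rest and 0.198 and 0.699 RPKM at 12 h and was not called, but it was called lower without Zn4 12 h replicate 2 (-0.47). The kinetochore gene Ndc80 (-2.23 ± 0.16) and the centromere histone gene Cenpa (-1.60 ± 0.24) fell. An E2F motif (TTTNNCGC on either strand), the sequence read by the factors that open S phase, was found before 10 of 34 replication genes (29.4%), against 8.77% of tested genes. All 10 were called higher, in a list where 37 of 42 were. Of all tested genes with the motif, 48.2% were called higher. Whether the motif goes with the call was not tested. Stretches from 3 of them show the match in capitals.
Mcm5 (chr8:75109336-75109383, plus strand): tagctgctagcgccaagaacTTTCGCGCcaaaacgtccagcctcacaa
Uhrf1 (chr17:56303261-56303308, plus strand): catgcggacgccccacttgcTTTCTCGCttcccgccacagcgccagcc
Mcm6 (chr1:128359788-128359835, minus strand): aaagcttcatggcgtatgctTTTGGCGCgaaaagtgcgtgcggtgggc
Uhrf1, a cofactor of DNA methylation, went from 1.46 and 1.89 to 9.01 and 13 RPKM (2.15 ± 0.21). Mcm6, a further helicase subunit, went from 22.0 and 21.9 to 66.3 and 70.2 RPKM (1.59 ± 0.12).

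Regulators of growth and of the G1 phase moved in both directions, 11 higher and 11 lower of 28, against 43.5% and 29.6% of all genes. Myc, the driver of growth after activation, was at 28.9 and 30.7 RPKM at rest and 366 and 366 RPKM at 12 h (3.57 ± 0.30). Ccnd2 (3.09) and Cdk4 (2.98), the cyclin and kinase of G1, rose with it. The Myc antagonist gene Mxd4 fell from 53.4 and 58.0 to 1.17 and 1.81 RPKM (-4.52 ± 0.24) and the kinase inhibitor gene Cdkn1b from 69.1 and 71.2 to 4.29 and 4.76 RPKM (-3.69 ± 0.17). Cdkn1a, the inhibitor induced by p53, rose from 1.12 and 2.33 to 48.5 and 51.6 RPKM (4.26 ± 0.34).

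Among genes of apoptosis and p53, 12 were higher and 13 lower of 31, against 43.5% and 29.6% of all genes. Bcl2l1, which encodes the survival protein Bcl-xL, was at 3.19 and 3.34 RPKM at rest and 72.3 and 70.2 RPKM at 12 h (4.08 ± 0.10). Bcl2a1d rose by 3.37 ± 0.17 but has near-identical copies, so its reads are uncertain. Phlda3, a p53 target, was at 0.196 and 0.262 RPKM at rest and 18 and 21.2 RPKM at 12 h (4.06 ± 0.15). Bax, which promotes cell death, rose from 41.7 and 47.7 to 247 and 282 RPKM, while Bcl2 fell from 12.6 and 15.3 to 5.28 and 6.17 RPKM.

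Interferon-stimulated genes were lower in 29 and higher in 4 of 36 cases, with a median of -1.55. Oas2, a sensor of double-stranded RNA, was at 12.9 and 7.58 RPKM at rest and 0.144 and 0.375 RPKM at 12 h (-3.12 ± 0.20). Ddx58, which encodes the RNA sensor RIG-I, was at 10.3 and 11.8 RPKM at rest and 0.449 and 0.567 RPKM at 12 h (-3.00 ± 0.14). Oasl2 fell by 2.60 and Stat2, a factor that carries the interferon signal, fell by 2.29. The members called higher were Ifih1, Ifitm2, Gbp5 and Bst2, of which Bst2 was not called under median-ratio scaling or quantile normalization, nor without Zn4 0 h replicate 2 or Zn4 12 h replicate 2. The interferon-stimulated response element, GAAA repeated after 2 free bases, was found on either strand before 14 of 25 genes of the list (56.0%), against 3.27% of tested genes. Of these 14, 10 were called lower and 3 higher, in a list where 29 of 36 were lower. Of all tested genes with the element, 40.5% were called lower and 38.3% higher. A part of the element in the calls was not tested. Stretches from 3 of those called lower are given with the match in capitals.
Stat2 (chr10:128270256-128270305, plus strand): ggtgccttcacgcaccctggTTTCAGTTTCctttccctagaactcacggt
Gbp3 (chr3:142559979-142560028, plus strand): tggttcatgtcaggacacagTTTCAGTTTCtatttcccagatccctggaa
Oas3 (chr5:120777705-120777754, minus strand): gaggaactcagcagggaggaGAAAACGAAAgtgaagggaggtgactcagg
Stat2 was at 21.5 and 20.9 RPKM at rest and 3.12 and 3.998 RPKM at 12 h. Gbp3, a guanylate-binding protein gene, was at 12.2 and 14.6 RPKM at rest and 1.76 and 2.20 RPKM at 12 h (-2.27 ± 0.23). Oas3 was at 7.78 and 4.69 RPKM at rest and 0.612 and 1.00 RPKM at 12 h (-1.98 ± 0.25).

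Genes of antigen presentation and the GIMAP family were called lower 16 times and higher 1 time among 21 tested (median -1.26). Gimap6 (-3.28 ± 0.22), Gimap4 (-2.86 ± 0.18) and Gimap9 (-2.85 ± 0.12), GTPases of lymphocyte survival, had the largest falls. B2m, the light chain of class I molecules, went from 1493 and 1539.7 to 668 and 728 RPKM. H2-Q4 fell by 2.47, and class I genes share sequence, so reads of single members are uncertain. Lysosome and autophagy genes were lower in 16 and higher in 8 of 33, and the number called higher was 3 with quantile normalization and 5 with median-ratio scaling, with limma-voom or with the Y-linked level as a covariate. The autophagy genes Map1lc3a (-3.13 ± 0.16) and Map1lc3b (-2.72 ± 0.12) fell.

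Complexes that work with Ikaros were called higher in 16 and lower in 5 of 29 cases (median 0.57), with 3 lower when Zn4 12 h replicate 2 was left out. Ezh2, the histone H3 methyltransferase of the Polycomb group, was at 1.39 and 2.92 RPKM at rest and 17.0 and 16.9 RPKM at 12 h (2.55 ± 0.23). Dnmt3a, a DNA methyltransferase, was at 4.81 and 5.75 RPKM at rest and 38.7 and 34.4 RPKM at 12 h (2.58 ± 0.11). Smarcc1, a subunit of the SWI/SNF remodelling complex, rose from 8.03 and 10.1 to 39.9 and 38.9 RPKM, while the NuRD remodeller gene Chd3 fell from 81.0 and 85.5 to 24.5 and 21.7 RPKM (-1.81 ± 0.11). Kdm6a, which removes the mark that Ezh2 sets and is X-linked, fell from 26.3 and 24.3 to 5.84 and 7.71 RPKM, and Uty, its Y-linked relative, rose from 0 and 0 to 1.43 and 0.620 RPKM. The part of the sex of the cells in the fall of Kdm6a was not tested.

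Of 36 genes of the cytoskeleton and nuclear lamina, 17 were called higher and 15 lower, against 43.5% and 29.6% of all genes. Vim, the intermediate filament vimentin, fell from 146 and 166 to 5.54 and 8.70 RPKM (-4.30 ± 0.25), and Lmna, the A-type lamin, from 10.3 and 17.8 to 0.242 and 0.470 RPKM (-3.43 ± 0.48). Tubb6, a tubulin, was at 1.17 and 1.58 RPKM at rest and 64.3 and 83.2 RPKM at 12 h (4.97 ± 0.24), and Nrn1, listed here for its link to neurite growth, at 0.735 and 0.777 RPKM at rest and 43.3 and 60.7 RPKM at 12 h (4.90 ± 0.34). The number lower was 9 with the Y-linked level as a covariate.

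**Figure D3:**
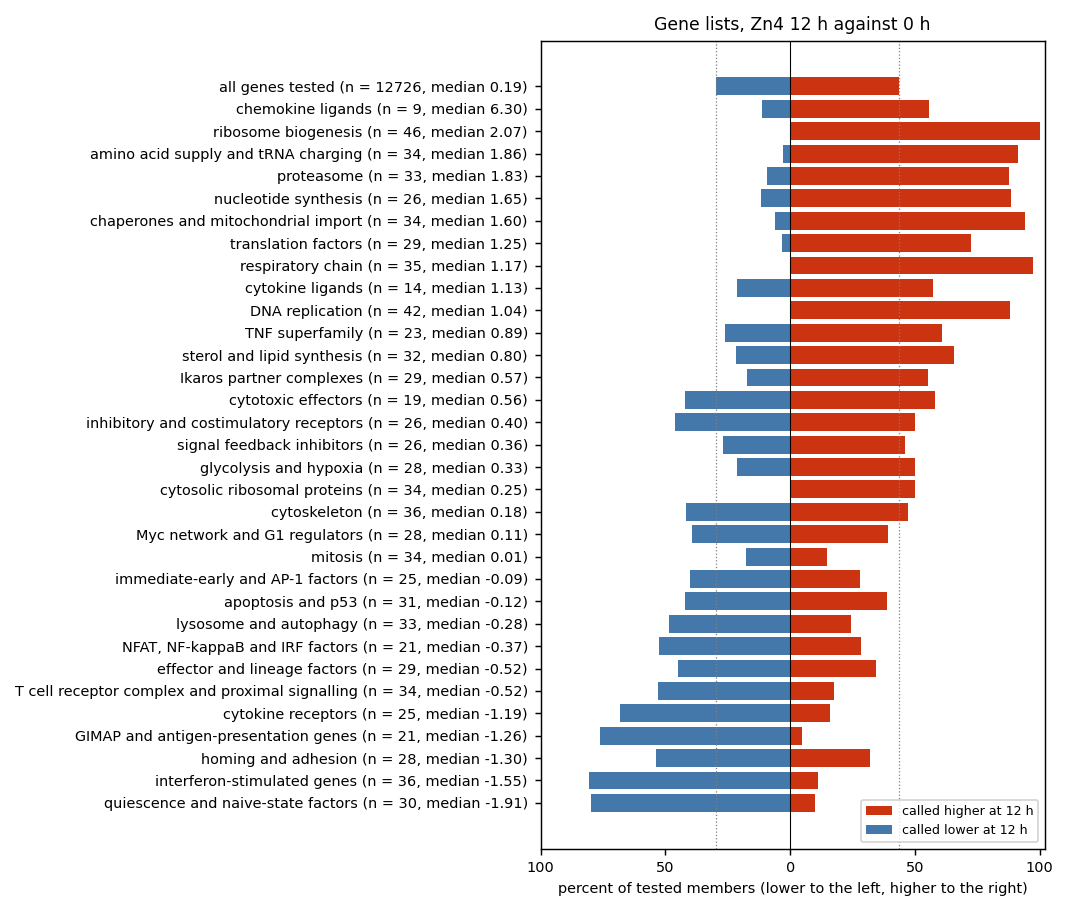
Bars give the percent of tested members of each list that were called higher (red, to the right) or lower (blue, to the left) at 12 h in Zn4 cells, with the number tested and the median log2 difference beside each name. Dotted lines mark the shares over all 12726 genes (43.5% higher, 29.6% lower), and lists are ordered by their median, from chemokine ligands (6.30) to quiescence factors (-1.91).

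Several of the largest falls lie outside these lists. Vps37b, of the ESCRT machinery, was at 813 and 694 RPKM at rest and 20.1 and 22.9 RPKM at 12 h (-5.07 ± 0.29). Emp1, an epithelial membrane protein gene, was at 76.5 and 56.5 RPKM at rest and 1.03 and 1.30 RPKM at 12 h (-4.95 ± 0.36). Both genes were picked among those whose resting and stimulated libraries do not overlap, and Vps37b kept the higher level at 12 h. Cd7 was at 76.3 and 71.5 RPKM at rest and 1.79 and 2.05 RPKM at 12 h (-4.68 ± 0.22), Igfbp4 at 78.2 and 86.1 RPKM at rest and 1.81 and 2.84 RPKM at 12 h (-4.66 ± 0.22) and Crip1 at 304 and 393 RPKM at rest and 9.51 and 15.1 RPKM at 12 h (-4.74 ± 0.25). Bambi-ps1 (-4.70 ± 0.26) is named as a pseudogene, so its reads may come from its parent gene. Among the rises, Lad1, a basement membrane gene, was at 0.640 and 1.01 RPKM at rest and 141 and 156 RPKM at 12 h (6.36 ± 0.19).

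WT cells had 8928 genes called between 0 h and 12 h (70.2%). The response of Zn4 cells was set against theirs by the difference between the 2 responses (the genotype by time interaction). Of 12726 genes, 651 (5.12%) differed in response, 196 with a higher value in Zn4 cells (1.54%) and 455 with a lower one (3.58%). The count was 318 with the Y-linked level as a covariate, and leaving out a single library brought it to 252 (WT 12 h replicate 2), 399 (Zn4 0 h replicate 2) or 236 (Zn4 12 h replicate 1). Those with a higher response numbered 101 with limma-voom on recovered reads and 86 to 191 when 1 library was left out, and any of the 12 h libraries, WT 0 h replicate 1 or Zn4 0 h replicate 2 moved them by over 1.5 times. Those with a lower response numbered 466 with limma-voom and 150 to 370 when 1 library was left out. Among genes called higher in Zn4 cells, 149 had a higher response than in WT cells and 49 a lower one. Among genes called lower in Zn4 cells, 359 had a lower response than in WT cells and 21 a higher one.

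**Figure D4:**
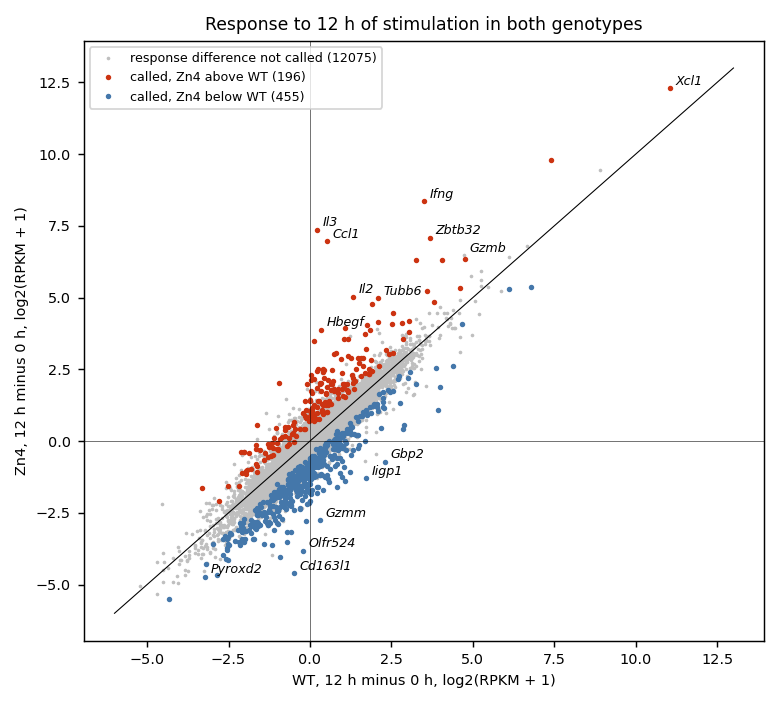
Each point is a gene, with the log2(RPKM + 1) difference between 12 h and 0 h in WT cells on the x axis and in Zn4 cells on the y axis, and the line marks equal responses. Red points (196) and blue points (455) are genes whose responses differed at an adjusted p under 0.05, and Il3, Ccl1 and Ifng lie far above the line.

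The 6 genes with the largest excess of response in Zn4 cells were Il3, Ccl1, Ifng, Il2, Hbegf and Zbtb32, and for Il3 and Hbegf the call held under all 19 alternatives run. Il3 reached 135 and 212 RPKM at 12 h in Zn4 cells and 0.131 and 0.333 RPKM in WT cells (difference in response 7.16 ± 0.28, adjusted p = 8.05e-06). Ccl1 reached 94.3 and 165 RPKM against 0.695 and 0.240 RPKM in WT cells (6.43 ± 0.59). Ifng reached 375 and 569.5 RPKM against 13.4 and 9.70 RPKM (4.85 ± 0.28). Resting levels of Ccl1 and Il3 were near 0 in both genotypes, so the gap was one of the stimulated level. Il2 reached 35.9 and 30.3 RPKM against 1.08 and 2.20 RPKM (3.70 ± 0.28), and Hbegf, a ligand of the epidermal growth factor receptor, 14.8 and 16.4 RPKM against 0.278 and 0.442 RPKM (3.54 ± 0.18). Zbtb32 reached 159.9 and 178 RPKM against 18.4 and 11.7 RPKM (3.39 ± 0.30). The differences in response of Ccl1, Ifng, Il2 and Zbtb32 were not called by limma-voom on recovered reads (adjusted p = 0.272, 0.108, 0.168 and 0.0628).

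Xcl1 reached 9674 and 9962 RPKM against 3995 and 4436 RPKM in WT cells (1.23 ± 0.26, adjusted p = 0.0274, limma). Under quantile normalization the difference was 0.07. That scaling gives the highest gene of every library the same value. It therefore cannot show a gap at 12 h for Xcl1, which ranked first in both genotypes. The limma call was lost in 11 of 19 alternatives, quantile normalization among them. It ended without WT 0 h replicate 1, either WT 12 h library, Zn4 0 h replicate 2 or either Zn4 12 h library. For Ccl4 the difference in response was 0.54 ± 0.33 and was not called (adjusted p = 0.452). For Gzmb it was 1.75 ± 0.51 and was not called either (adjusted p = 0.0906), but it was called without WT 12 h replicate 1 (2.30, adjusted p = 0.0309). Il2ra (0.29 ± 0.24) and Tnfrsf9 (0.13 ± 0.34) were not called, so a difference in these genes was not shown. Lta (1.94 ± 0.19), the survival gene Bcl2l1 (1.55 ± 0.15) and Tubb6 (2.89 ± 0.34) had differences that were called under all 19 alternatives. Ccl3 (2.39 ± 0.54) lost its call in 9 of 19, among them each fit without 1 library of Zn4 cells or of resting WT cells.

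**Figure D5:**
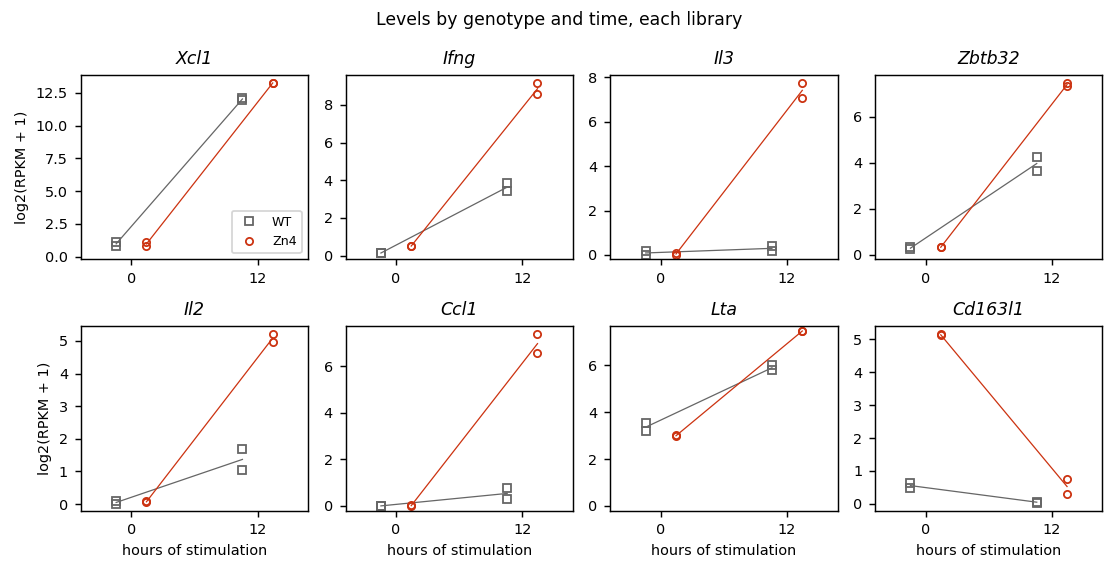
Symbols give each library on the scale log2(RPKM + 1) for WT (grey squares) and Zn4 cells (red circles) at 0 h and 12 h, and lines join the group means. Il3, Ccl1, Il2 and Zbtb32 start low in both genotypes and end higher in Zn4 cells, while Cd163l1 starts high in resting Zn4 cells alone and is low in all libraries of 12 h.

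The 6 genes with the largest deficit of response were Cd163l1, Olfr524, Pyroxd2, Gzmm, Gbp2 and Iigp1, and all were higher in both resting Zn4 libraries than in both resting WT libraries. Cd163l1, a scavenger receptor gene known from gamma-delta T cells, was at 33.6 and 34.6 RPKM in resting Zn4 cells and 0.543 and 0.402 RPKM in resting WT cells. At 12 h it was at 0.237 and 0.684 RPKM in Zn4 cells and 0.0238 and 0.0520 RPKM in WT cells (difference in response -4.10 ± 0.21, adjusted p = 2.45e-05, and 0.0721 by limma-voom on recovered reads). Olfr524 was at 12.8 and 16.4 RPKM at rest and 0.168 and 0.0343 RPKM at 12 h in Zn4 cells, with 0.111 and 0.232 RPKM in resting WT cells (-3.59 ± 0.20, adjusted p = 0.103 by limma-voom). Pyroxd2 was at 17.7 and 19.8 RPKM at rest and 0.137 and 0.279 RPKM at 12 h in Zn4 cells, with 1.29 and 0.957 RPKM in resting WT cells (-3.10 ± 0.19). In Cd163l1, Olfr524 and Pyroxd2 the stimulated libraries of both genotypes were all below 1 RPKM. Gzmm, a granzyme gene, was at 36.8 and 18.3 RPKM at rest and 2.63 and 3.36 RPKM at 12 h in Zn4 cells, and at 0.637 and 0.528 RPKM at rest and 0.923 and 1.02 RPKM at 12 h in WT cells (-3.08 ± 0.37). Outside these 6, Tmem176a, a membrane protein gene, went from 30.3 and 30.3 to 1.59 and 1.95 RPKM in Zn4 cells (-2.80 ± 0.20) and reached at most 0.628 RPKM in the WT libraries of 0 h and 12 h. In limma-voom on recovered reads its difference in response was 1.28, of the other sign and not called. Within the 6, Gbp2 and Iigp1 had another course, and both kept their call under all 19 alternatives. Gbp2 was at 44.3 and 52.8 RPKM at rest and 25.0 and 33.4 RPKM at 12 h in Zn4 cells, and at 17.6 and 27.8 RPKM at rest and 97.0 and 135 RPKM at 12 h in WT cells (-3.04 ± 0.35). Iigp1, also induced by interferon, was at 14.3 and 19.7 RPKM at rest and 5.54 and 7.10 RPKM at 12 h in Zn4 cells and at 0.813 and 1.91 and then 5.71 and 7.58 RPKM in WT cells (-3.01 ± 0.42).

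By list, the T cell receptor group had 10 members with a lower response in Zn4 cells and 1 with a higher one of 34. Interferon-stimulated genes had 8 lower and 2 higher of 36, and the antigen presentation and GIMAP group had 8 lower of 21, where 3.58% of all genes were lower. Cd3d (-1.02 ± 0.15) was among the receptor genes with a lower response under all 19 alternatives, while the call of Cd3g (-1.02 ± 0.21) was lost in 8 of them, 7 of which left out 1 library. Irf1 (-1.52 ± 0.19) and Gimap9 (-1.61 ± 0.17) had a lower response in Zn4 cells under all 19 alternatives. Ifih1, which encodes the RNA sensor MDA5, had a higher one (2.98 ± 0.35): it went from 5.80 and 4.06 to 25.1 and 21.2 RPKM in Zn4 cells and from 2.72 and 2.39 to 0.766 and 0.943 RPKM in WT cells.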

How the data were processed

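RNA of naive CD8 T cells of 2 genotypes at 3 times was read in 12 stranded, single-end mRNA libraries. The authors aligned reads with TopHat2 2.0.12 and counted them with HTSeq 0.6.1 on mm10 (GRCm38), per the submitters' processing notes; whether counting used strand is not given in the sources used here, so reads of overlapping genes may be mixed. The deposited values are RPKM, normalized by the authors, for 12885 symbols (7 listed on 2 identical lines were used once). The lowest of the genes' highest group means is 1.0005 RPKM. RPKM steps gave whole reads for 100.0% of genes (tolerance 0.02 reads) and library totals from 24263907 to 33389808 reads. Gene positions are from GENCODE M21, promoters from RefSeq.

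The 12726 genes that reached 1 RPKM in 2 or more libraries entered the test, as log2(RPKM + 1). The model was limma's (version 3.58.1, in R 4.3.3) with moderated variances that follow a trend on the mean level, 1 mean per group over all 12 libraries, and 6 residual degrees of freedom. Benjamini-Hochberg adjustment ran over all genes, and calls were made under 0.05. Differences carry the model's SE, and a pseudocount of 1 understates the change of low genes. Same-numbered libraries of the Zn4 groups differed in Y-linked transcripts between 0 h and 12 h. The labels do not pair same-numbered replicates. Their deviations correlated at over 0.1 in 3 of 15 pairs of groups (at 0.61 between resting WT and resting Zn4 cells), so the main fit has no block.

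The comparison, the members and the 39 gene lists were chosen with earlier results of these data known. The rule for naming genes took the 12 largest rises and falls among called genes whose Zn4 libraries of 0 h and 12 h did not overlap. It also took the 4 called genes with the largest difference in each list. The 6 largest differences in response in each direction and fixed genes of T cell function were added. Some genes are not reported here. A further 59 genes were named after their values were seen, among them all members of 5 or fewer given as exceptions of a list. As alternatives, the pseudocount was set to 0.1, the filter was dropped or raised to 5 RPKM, and the fit was repeated with median-ratio scaling, quantile normalization, robust variance moderation, only the libraries of the comparison, a replicate block, the Y-linked level as a covariate, limma-voom on recovered reads, and each library of 0 h and 12 h left out.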

Additional observations from a re-analysis of the deposited data

Results flagged for a closer look

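These genes stand out because their response to 12 h of stimulation differed between Zn4 and WT cells in a test of the difference itself (the genotype by time interaction, limma, adjusted p under 0.05). Of the 198 genes in the text 54 did so, 20 with a higher and 34 with a lower response in Zn4 cells. Over all genes tested the shares were 1.54% higher and 3.58% lower. Some of the 198 were named for their difference in response or after values were seen, so 54 of 198 reflects that choice. Values are the log2(RPKM + 1) difference in response, Zn4 minus WT.

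Among cytokines, chemokines and other ligands the values were 7.16 for Il3, 6.43 for Ccl1, 4.85 for Ifng, 3.70 for Il2, 3.54 for Hbegf, 2.39 for Ccl3, 2.26 for Ccl9, 1.94 for Lta, 1.78 for Csf2, 1.62 for Wnt10b, 1.23 for Xcl1 and 0.75 for Fasl. Other genes with a higher response were Zbtb32 (3.39), Crabp2 (3.06), Ifih1 (2.98), Tubb6 (2.89), Lad1 (1.59), Bcl2l1 (1.55), Asns (1.5) and Cd200 (1.03).

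On the lower side, membrane proteins and granzymes included Cd163l1 (-4.10), Olfr524 (-3.59), Tmem176a (-2.80), Tmem176b (-1.65), 5830411N06Rik (-2.01), Gzmm (-3.08), Itgb7 (-1.65), Cd28 (-1.37) and Cd2 (-1.25). Genes of interferon response and antigen presentation were Gbp2 (-3.04), Iigp1 (-3.01), Gbp5 (-1.45), Stat2 (-1.24), Irf1 (-1.52), Gimap4 (-1.86), Gimap9 (-1.61), Psmb8 (-1.17), Psmb9 (-1.33) and B2m (-0.56). Genes of receptor signalling were Cd3d (-1.02), Cd3g (-1.02), Dgka (-1.15), Txk (-0.75), Spry1 (-0.82) and Rgs16 (-1.43). Transcription factors were Epas1 (-2.47), Tbx21 (-2.34), Prdm1 (-1.31), Lef1 (-0.87) and Bach2 (-0.73). The remaining values were -3.10 for Pyroxd2, -1.81 for Igfbp4, -1.51 for Crip1 and -0.86 for Pdcd4. These calls were not equally stable: those of Ccl3, Ccl9, Csf2, Fasl, Xcl1, Tbx21, Prdm1, Lef1, Cd3g, Dgka, Txk, Spry1, Itgb7, Cd28, Stat2, Psmb9, B2m and Crip1 were each lost in 7 to 12 alternatives, and those of Rgs16 and Pdcd4 in 4 and 5. Groups of 2 libraries are too small for a search for single outlying samples.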

How the results depend on the processing

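The number of genes called between 0 h and 12 h in Zn4 cells (9296) stayed within 1.5 times under every alternative run, from 6979 with the Y-linked level as a covariate to 9406 with a replicate block on the shared number, and from 8370 to 8777 when 1 library was left out. The number at least 2-fold changed (4815) ran from 4755 to 4856 without 1 library. For WT cells (8928) it ran from 7937 to 8516. The number of genes whose responses differed (651) was less stable: it was 318 with the Y-linked level as a covariate and 236 to 561 without 1 library. The libraries that moved it by over 1.5 times were WT 12 h replicate 2 (252), Zn4 0 h replicate 2 (399) and Zn4 12 h replicate 1 (236).

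A shared replicate number was not taken as a pairing, since no label says so and not every pair of groups deviated together: deviations of same-numbered replicates of the Zn4 groups at 0 h and 12 h correlated at -0.0046, and over 15 pairs of groups from -0.115 to 0.61 (the highest between resting WT and resting Zn4 cells, then 0.192 between WT and Zn4 cells at 12 h). A replicate block on the shared number gave 9406 calls in Zn4 cells and 703 differences in response, and a block within genotype 9204 and 471. In these 2 fits, 1 and 14 of the 54 response differences in the text were not called, and the response of Gzmb was called with the block on the shared number (adjusted p = 0.037).

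Of 285 gene results, 226 kept their direction and side of the threshold under every alternative. Of the 54 response differences, 16 did, 22 were lost without Zn4 12 h replicate 1, 19 without WT 12 h replicate 2, 21 in limma-voom and 16 with the Y-linked level as a covariate. Signs turned with the Y-linked covariate for Ccl5 (0.19), Eif2s3y (-0.17), Kdm5d (-0.38) and Uty (-0.12), and with quantile normalization for Cd3e (-0.27). In limma-voom they turned for the responses of Asns (-0.20), 5830411N06Rik (0.65), Prdm1 (0.15), Tmem176a (1.28) and Tmem176b (1.54). Eif2s3y, Kdm5d and Uty are part of the sum that makes the Y-linked covariate, so that fit cannot show a change in them. For the other genes and for the moved counts the cause was not tested. In Zn4 cells the Y-linked level changed with time, so the fit with that covariate cannot separate the 2. Depth limits genes below about 0.06 RPKM, where 3 reads or fewer stand behind a value in a gene of 2 kb, and with 2 libraries per group the spread of a single gene is mostly borrowed from other genes.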

Other observations

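Gene positions on chromosome 7 (GRCm38, GENCODE M21) place 3 genes of like course next to each other, a set chosen after its values were seen. Olfr524 lies at 140198499-140205964 on the minus strand, Cd163l1 at 140218267-140231145 on the plus strand and 5830411N06Rik at 140247284-140300736 on the plus strand. In Zn4 cells 5830411N06Rik was at 10.3 and 8.05 RPKM at rest and 0.0717 and 0.302 RPKM at 12 h (-3.10 ± 0.15), and in WT cells at 1.33 and 1.00 RPKM at rest and 0 and 0.0226 RPKM at 12 h (difference in response -2.01 ± 0.22, adjusted p = 0.00177, limma). The sign of that difference turned in limma-voom on recovered reads (0.65, not called). Both 12 h libraries of Zn4 cells held each of these 3 neighbours below 1 RPKM, and both resting ones held each of them higher. Whether reads of one gene reach into the next was not tested.

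Among the 46 genes that went from under 1 RPKM in both resting libraries to at least 10 RPKM in both 12 h libraries were some with no listed role in T cells. Crabp2, which binds retinoic acid, went from 0.318 and 0.336 to 104 and 104 RPKM (6.30 ± 0.18). Npas4, known as an activity-dependent factor of neurons, went from 0.268 and 0.249 to 28.1 and 24.6 RPKM (4.44 ± 0.29). Wnt10b, a secreted Wnt ligand, went from 0.278 and 0.302 to 47.6 and 46.5 RPKM (5.22 ± 0.18). That both stimulated libraries lay above both resting ones follows from the way these genes were chosen. On the way down, Epas1, a hypoxia-inducible factor, went from 12.9 and 15.1 to 0.174 and 0.246 RPKM (-3.63 ± 0.13), and Klf4, a factor of quiescent cells, from 15.6 and 16.5 to 0.525 and 0.703 RPKM (-3.40 ± 0.41).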
